A study of Hydra vulgaris with 15 samples.

Results

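A set of 255 assembled transcripts of the freshwater polyp Hydra vulgaris was present at a low level in every control head and at under 0.3 of that level in heads after RNA interference (RNAi) against Zic4. They were chosen by the head values themselves, out of 6796 rare head transcripts in a table of 79784 assembled sequences (contigs). A rare head transcript had at least 10 counts, but under 5 CPM, in each of 4 control heads, where CPM is the expected count of a transcript scaled to a library total of 1000000. A rare head transcript entered the set where the mean CPM of 4 Zic4 RNAi heads was under 0.3 of the mean of the 4 control heads. The set was thus 3.75% of the rare head transcripts and 0.32% of the table. Because the head values chose the set, its difference between RNAi and control heads is described below and supports nothing. The body columns took no part in the choice, and the RNAi effect there was tested.

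Zic proteins are zinc-finger transcription factors found across animals, and the study concerned Zic4 in tentacle formation and in the identity of epithelial cells. A Hydra head carries a mouth and a ring of tentacles on top of a tube-shaped body column. Tentacle epithelial cells hold the stinging cells, which are made in the body column and move outward. RNAi uses RNA matched to a gene to have the messenger RNA of that gene degraded.

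The groups were heads of Zic4 RNAi animals (n = 4), body columns of Zic4 RNAi animals (n = 4), heads of control animals (n = 4) and body columns of control animals (n = 3, replicates 2, 3 and 4). All animals were of the strain Basel1 and had been starved for 4 days before the experiment. The labels give electroporation of intact polyps, 4 times, for every sample and RNA extraction 1 day after the last one, from 20 polyps per condition. The labels mark the controls as wild-type and do not say what, if anything, was electroporated into them. The source field reads "entire animal" for every sample, and the tissue was taken from the sample titles and the tissue field. The labels do not say that replicates came from separate cultures, so the p-values measure the spread between these samples only. In such bulk tissue, fewer cells that hold a transcript and less of it per cell cannot be told apart.

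Library totals lay between 16020872 and 22554240 expected counts. Of the nonzero values 73.9% were not whole numbers (tolerance 0.001), as can arise where an estimating program divides reads between similar contigs. The source of the fractions was not tested. A value of exactly 0 can therefore be an estimate as well as a lack of reads. A floor of 3 counts per library came to between 0.133 and 0.187 CPM, depending on the library, and covers counting error only. None of the 79784 contig IDs could be tied to a gene name through a table of 28925 reference genes (0 matched), so members are given by ID with no function, and Zic4 and markers of head, tentacle or body column cells were not analysed here.

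The summed level of the 255 members was 86.8, 92.5, 97.8 and 97.9 CPM in the RNAi heads 1 to 4, against 418, 402, 427 and 477 CPM in the control heads 1 to 4. In body columns it was 153, 150, 155 and 150 CPM in the RNAi animals 1 to 4, against 153, 124 and 161 CPM in the control animals 2, 3 and 4. The RNAi head sums averaged 93.8 ± 5.29 CPM and the control head sums 431 ± 32.3 CPM (SD, n = 4 each), which is 21.8% of the control head mean and fixed by the choice. The body column sums averaged 152 ± 2.25 CPM in RNAi animals (SD, n = 4) and 146 ± 19.8 CPM in controls (SD, n = 3). The body column groups overlapped, at 35.2% of the control head mean in RNAi animals and 33.9% in controls. The RNAi head sums were below every body column sum of either treatment. The rule holds the RNAi heads low and not the body columns, so this order is a description only. The other 6541 rare head transcripts, summed in the same way, stood at 85.6% of their control head mean in RNAi heads, at 91.7% in RNAi body columns and at 100% in control body columns.

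**Figure D1:**
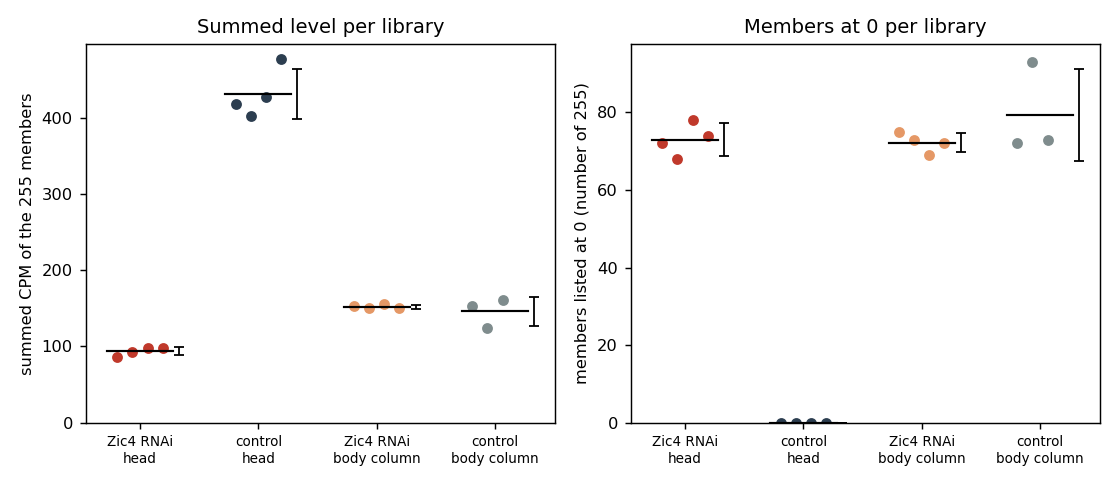
Summed level of the 255 members in each of the 15 libraries (left, points, CPM, linear axis from 0) and the number of members listed at 0 (right), with the mean (line) and SD (bar) of each group. The 4 RNAi heads sit between 86.8 and 97.9 CPM, below the 7 body columns of both treatments, and the 4 control heads between 402 and 477 CPM. The rule used the head levels, so this order is a description only.

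Single members lay close to the limit of detection. The mean level of a member in RNAi heads had a median of 0.318 CPM over the 255 members and quartiles of 0.205 and 0.473 CPM. In control heads the mean level had a median of 1.43 CPM, with quartiles of 1.11 and 2.03 CPM and a range from 0.625 to 4.26 CPM. In expected counts per library the medians were 6.4 in RNAi heads and 26.7 in control heads. The ratio of the RNAi to the control head mean had a median of 0.228 and quartiles of 0.168 and 0.27. For the other rare head transcripts the median level was 1.63 CPM in RNAi heads and 2.04 CPM in control heads.

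The 4 RNAi heads did not share the low level equally. In 43 members each RNAi head was under 0.3 of the control head mean, in 132 members 3 of the 4 were, in 77 members 2 were, and in 3 members 1 was. At least 1 RNAi head was listed at 0 in 165 members (64.7%), against 439 of the other rare head transcripts (6.71%). Per library, between 26.7% and 30.6% of the members were at 0 in RNAi heads, against 0 in control heads, where the rule left no room for it. Between 1.7% and 2.19% of the other rare head transcripts were at 0 in an RNAi head. The rule keeps the RNAi head mean of members low and so favours zeros there. The larger share of members at 0 in RNAi heads is therefore a description only.

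In 109 members (42.7%) the RNAi heads held both a library at 0 and a library with at least 10 counts. The same on-and-off listing was found in 436 of the other rare head transcripts (6.67%). In RNAi heads this difference cannot be told apart from the low mean that the rule asked for. In body columns 68 members (26.7%) had it among the RNAi libraries and 70 (27.5%) among the control libraries. Among the other rare head transcripts it was found in 501 (7.66%) in RNAi body columns and 524 (8.01%) in control body columns. At a like mean body column level, between 0.3 and 1 CPM, it held for 46 of 129 members (35.7%) and 259 of 1624 others (15.9%) in RNAi body columns. At that level the control body columns had it in 49 members (38%) and in 261 others (16.1%). Whether reads divided between similar contigs make up these values was not tested. Whole-number values made up 12.7% of the members' control head values and 20.1% of those of the other rare head transcripts. All 15 values were whole in 18 members (7.06%), against 934 of the others (14.3%). Among these 18 members, 7 had every RNAi head under 0.3 of the control head mean, and 0 were on and off within a body column group. On-and-off listing was not counted among the 934 others, so nothing is read from it. An RNAi head at 0 was found in 4 of the 18 members, where the rule favours it, and in 2 of the 934 others.

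**Figure D2:**
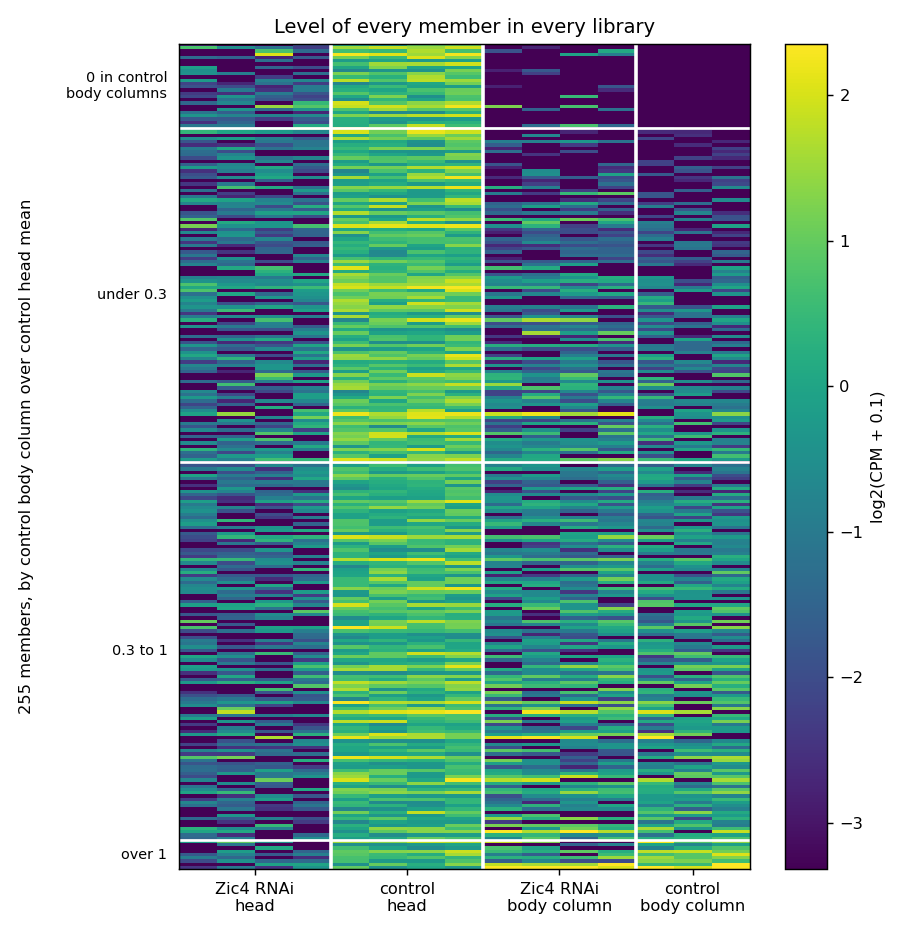
Level of each of the 255 members (rows) in each of the 15 libraries (columns) as log2(CPM + 0.1), with colours capped at about 5 CPM and rows ordered by the ratio of control body column to control head mean, in 4 classes. RNAi heads are patchy, with many values at 0 beside values near the control head level, and the body columns of both treatments hold many values at 0 as well.

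The quasi-likelihood test of edgeR, fitted over all tested transcripts, called 17 members (6.67%) lower in RNAi heads (Benjamini-Hochberg adjusted p under 0.05). Of all tested transcripts 2.11% were called lower and 4.76% in either direction, and of the rare head transcripts 0.780% were called lower. The median log2 fold change was -1.98 over the members and -0.02 over all tested transcripts. Since the rule used this contrast, nothing is read from these counts. The 17 had fitted log2 fold changes between -8.59 and -1.68 and control head means between 1.36 and 4.23 CPM. In 11 of them no RNAi head was at 0, and in 10 every RNAi head was under 0.3 of the control head mean. On-and-off listing in a body column group was seen in 1 of the 17 (5.88%), against 105 of all 255 members (41.2%). The test takes the spread of a transcript from all libraries, body columns included. On-and-off values in body columns thus enter the spread used in heads. Whether this made such transcripts harder to call was not tested, and nothing is read from this share.

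The members at the highest control head level differed in how evenly they were low. GGKF01032553.1 had 0.973, 0.959, 1.17 and 1.36 CPM in RNAi heads 1 to 4, against 3.94, 3.52, 4.62 and 4.83 CPM in control heads 1 to 4. Every RNAi head was below every control head, by a log2 fold change of -1.82 ± 0.33 (SE). In body columns it had 1.29, 1.28, 0.555 and 1.07 CPM after RNAi, against 0.508, 0.408 and 0.914 CPM in controls, and these groups overlapped. GGKF01062651.1 had 2.17, 0.651, 0.7 and 1.51 CPM in RNAi heads, against 4.06, 4.29, 4.2 and 4.49 CPM in control heads. Its control heads were nearly level while its RNAi heads spread over more than a factor of 3. Its body columns lay at 0.619, 1.16, 0.112 and 0.415 CPM after RNAi, against 0.376, 0 and 0.851 CPM in controls.

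In 3 members all 4 RNAi heads were at 0, and any rare head transcript with this is a member by the rule. The opposite, all 4 control heads at 0 beside the same level limits in the RNAi heads, was found for 6 contigs. GGKF01015246.1 was at 0 in all 4 RNAi heads, against 2.06, 1.09, 3.46 and 1.91 CPM in control heads. It was at 0 in all 4 RNAi body columns too, against 1.66, 2.45 and 0.997 CPM in control body columns. Absence from all 8 RNAi libraries beside at least 10 counts in all 7 control libraries was found for 1 contig of the whole table, which is this member. The opposite listing, at 0 in all 7 control libraries and at 10 or more counts in all 8 RNAi libraries, was also found for 1 contig. GGKF01017697.1 was at 0 in all 4 RNAi heads, against 1.46, 2.81, 2.95 and 3.76 CPM in control heads, and at 0 in all 7 body columns of either treatment. The remaining one, GGKF01049772.1, named after its values were seen, was at 0 in all 4 RNAi heads, against 0.995, 1.54, 2.7 and 2.02 CPM in control heads. Its body columns had 0, 0.513, 0 and 0 CPM after RNAi, against 0, 0.072 and 0 CPM in controls. Taken against the floor of 3 counts per library, the 3 were at least 14.2-fold, 18.2-fold and 12-fold lower in RNAi than in control heads, in the order given.

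**Figure D3:**
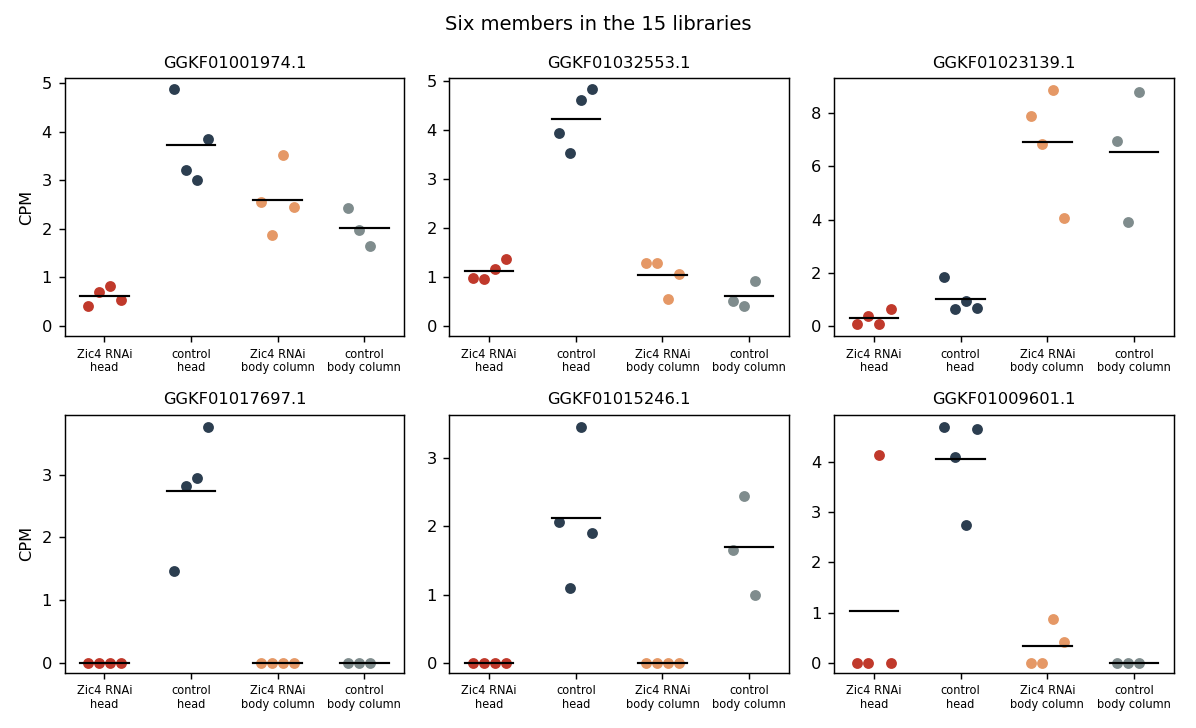
Level of 6 members in every library (points, CPM, linear axes from just under 0) with group means (lines), RNAi left of control and heads left of body columns. GGKF01015246.1 is at 0 in all 8 RNAi libraries, GGKF01017697.1 is at 0 everywhere but in control heads, and GGKF01009601.1 is at 4.14 CPM in 1 RNAi head and at 0 in the other 3.

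How far the low level held in a head that had no say in the choice was measured by leaving out each RNAi head in turn and choosing anew with the other 3. Between 271 and 341 transcripts were then chosen. In the RNAi head left out, their median level was 0.356, 0.321, 0.364 and 0.409 of the control head mean for RNAi heads 1, 2, 3 and 4. Over all rare head transcripts the medians in the same heads were 0.8, 0.711, 0.784 and 0.806. The chosen transcripts were under 0.3 in 43.1%, 47.6%, 44.2% and 38.7% of cases in RNAi heads 1 to 4 when left out, against 10.4%, 11.5%, 10.4% and 8.09% of all rare head transcripts. The control heads used here had also served in the choice. Leaving out a control head in place of an RNAi head measured the other side of the rule. The chosen transcripts, between 349 and 422, had medians of 0.681, 0.652, 0.651 and 0.721 of the other control heads in the control head left out, for control heads 1 to 4. All rare head transcripts chosen from the same 3 control heads had 0.985, 0.942, 0.882 and 1.04 there. A control head with no part in the choice thus held these transcripts at a lower median level than the control heads that had one. In that control head between 19.5% and 23.7% of the chosen transcripts were under 0.3, against between 4.08% and 7.34% of all rare head transcripts. Between 11.7% and 15.9% of the chosen transcripts were at 0 in that control head, and between 13.8% and 16% were at 0 in an RNAi head that was left out. Over all rare head transcripts, between 2.23% and 3.74% were at 0 in the left-out control head. In the left-out RNAi head it was between 2.72% and 3.19% of them.

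**Figure D4:**
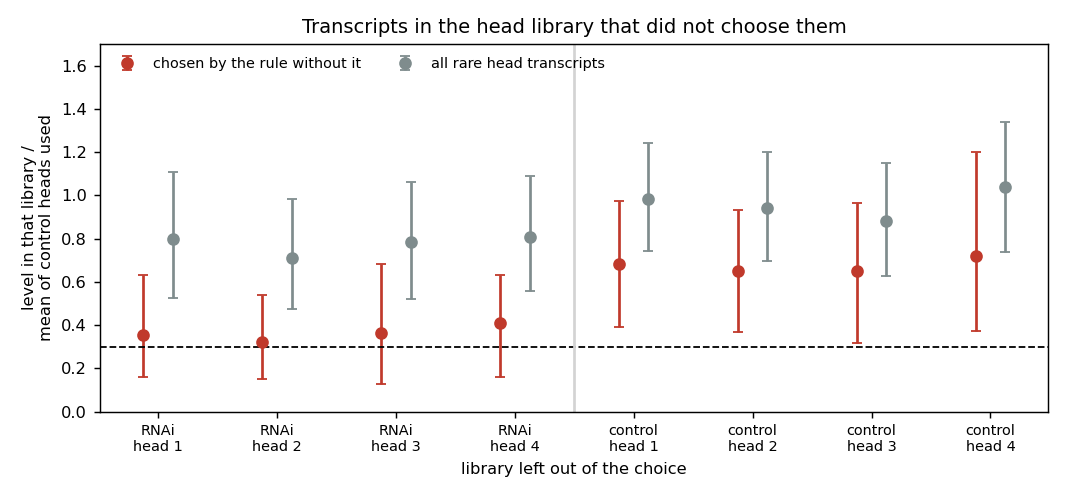
Level in each head when that head was left out of the choice, relative to the mean of the control heads used, for the transcripts chosen without it and for all rare head transcripts (median as point, quartiles as bar, ratio with no unit, dashed line at 0.3). The chosen transcripts lie at medians between 0.321 and 0.409 in left-out RNAi heads and between 0.651 and 0.721 in left-out control heads.

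By their level in body columns the members fell into 4 classes, set by the ratio of the control body column mean to the control head mean. The first class, at 0 in every control body column, held 26 members (10.2%). The second, under 0.3, held 103 (40.4%), the third, from 0.3 to 1, held 117 (45.9%), and the fourth, over 1, held 9 (3.53%). Because the same control heads chose the members, this ratio is a description with no test. Of all rare head transcripts in each class the members were 23.4% of 111 at 0, 12.8% of 802 under 0.3, 3.29% of 3560 from 0.3 to 1, and 0.387% of 2323 over 1. Members were thus a larger share of the rare head transcripts the lower the control body column stood.

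The median of the RNAi head means was 0.212 CPM in the class at 0, 0.352 CPM under 0.3, 0.3 CPM from 0.3 to 1 and 0.3 CPM over 1. The control head medians were 1.64, 1.72, 1.31 and 1.42 CPM in the same order of classes. All 4 RNAi heads were under 0.3 in 10 of the 26 members at 0 in control body columns (38.5%), in 19 of 103 under 0.3 (18.4%), in 13 of 117 from 0.3 to 1 (11.1%) and in 1 of 9 over 1 (11.1%). Of the 26 members at 0 in the 3 control body columns, 15 were also at 0 in all 4 RNAi body columns. An RNAi head mean below the RNAi body column mean was seen in 154 of the 255 members, where the rule keeps the RNAi head mean low, and in 2877 of the other 6541 rare head transcripts.

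The share of members was also read against the mean of all 7 body columns, over all rare head transcripts. Members were 15 of 41 transcripts at 0 (36.6%), 27 of 126 above 0 and up to 0.1 CPM (21.4%), 47 of 324 from 0.1 to 0.3 CPM (14.5%), 129 of 1753 from 0.3 to 1 CPM (7.36%), 34 of 3292 from 1 to 3 CPM (1.03%) and 3 of 1260 over 3 CPM (0.238%). The median head ratio of all rare head transcripts in these bins was 0.361, 0.49, 0.499, 0.621, 0.832 and 0.989. Control head levels moved with the bins, with medians of 1.55, 1.4, 1.33, 1.34, 2.18 and 3.1 CPM. The part of this difference in level in the share of members was not tested.

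**Figure D5:**
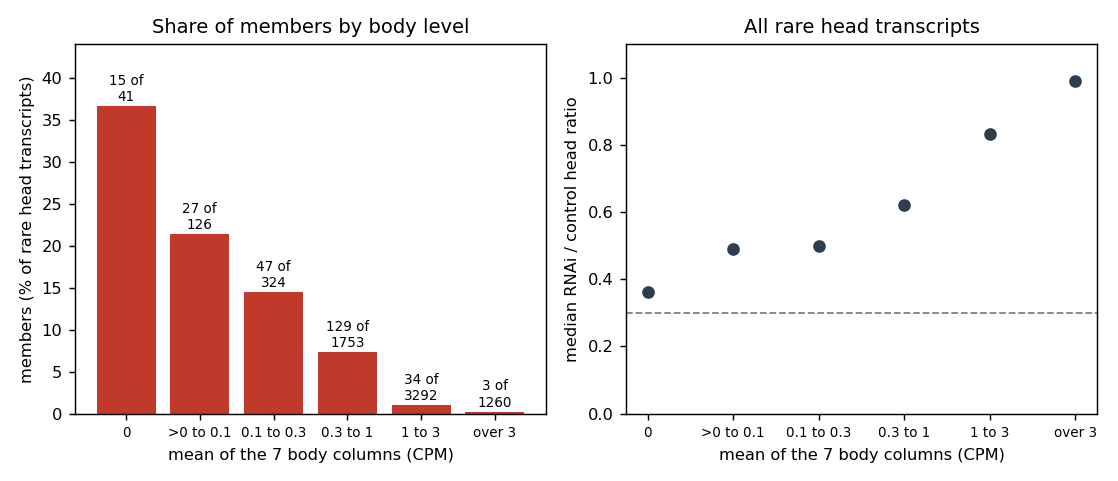
Rare head transcripts by their mean level over the 7 body columns (CPM bins), with the percent that are members (left, bars) and the median ratio of RNAi to control heads (right, points, dashed line at 0.3). The percent of members is 36.6% in the bin at 0 and 0.238% in the bin over 3 CPM, and the median ratio is 0.361 and 0.989 in the same bins.

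The members with the highest control body column means held the transcript at a higher level there than in most heads. GGKF01023139.1 had 0.0859, 0.385, 0.0779 and 0.652 CPM in RNAi heads, against 1.84, 0.637, 0.931 and 0.69 CPM in control heads. Its body columns had 7.88, 6.83, 8.86 and 4.07 CPM after RNAi, against 6.94, 3.89 and 8.78 CPM in controls, all above every head and overlapping between treatments. GGKF01079710.1 had 0, 0, 0.862 and 0.894 CPM in RNAi heads, against 0.624, 1.91, 1.07 and 2.39 CPM in control heads, so these groups overlapped. Its body columns had 3.38, 2.96, 2.87 and 5 CPM after RNAi, against 1.28, 1.34 and 6.67 CPM in controls. At the other end, GGKF01009601.1 was at 0 in all 3 control body columns. It had 0, 0, 4.14 and 0 CPM in RNAi heads, against 4.7, 4.11, 2.75 and 4.65 CPM in control heads. RNAi head 3 alone was within the range of the control heads. GGKF01060841.1 was also at 0 in the control body columns, against 2.25, 0, 1.52 and 0 CPM in RNAi body columns. Its heads had 0, 0, 2.68 and 1.69 CPM after RNAi, against 3.52, 3.82, 2.95 and 4.6 CPM in controls.

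Whether the members also differed between RNAi and control body columns is the comparison that their choice left free. Of the 255 members 2 were called in body columns by edgeR's quasi-likelihood test (Benjamini-Hochberg adjusted p under 0.05), both lower after RNAi. This is 0.784% of the members, beside 2.06% of all tested transcripts called in either direction, 0.543% called lower and 1.51% called higher. Among the rare head transcripts 30 were called (0.441%). An unadjusted p under 0.05 in that test was found for 22 of the 255 members. It was found for 5227 of all 31142 tested and 756 of the 6796 rare head transcripts. The median log2 fold change was 0.07 over the members and 0.01 over all tested transcripts. All 4 RNAi body columns were below all 3 control body columns in 10 members (3.92%, beside 9.12% of all tested transcripts), and above them in 4 (1.57%, beside 5.87%). All 255 members passed the filter on low counts because the rule asked for counts in control heads, and only 114 passed it on the 2 body column groups alone. The other members had few counts in body columns with which to be called, so the share called is given as a description and nothing about the set is read from it. DESeq2 called 9 of the 255 members in body columns, 3 higher and 6 lower, beside 8.03% of all tested transcripts in either direction. With only the 2 body column groups in the fit edgeR called 0 of 114 members, beside 0.395% of all tested transcripts.

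The pair called lower in body columns differed in its heads. GGKF01015246.1, at 0 in all RNAi libraries, had an adjusted p of 0.0116 by edgeR's quasi-likelihood test in body columns, and of 0.0712 with only the 2 body column groups in the fit. GGKF01033274.1 had 0.222, 0.503, 0.152 and 0.146 CPM in RNAi body columns, against 2.41, 2.22 and 1.42 CPM in control body columns. The groups did not overlap, and the log2 fold change was -2.91 ± 0.62 (SE, edgeR adjusted p = 0.0301). In heads it had 0.15, 0.647, 0.273 and 0.29 CPM after RNAi, against 1.5, 0.758, 0.726 and 1.61 CPM in controls. This second call was lost when any of control body columns 2 and 3 or RNAi body columns 1, 3 and 4 was left out, with adjusted p between 0.0627 and 0.109.

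The members with the lowest p among those higher in RNAi body columns did not pass the test. GGKF01027068.1 had 0.443, 0.453, 0.7 and 0.348 CPM in RNAi body columns, against 0, 0 and 0.0571 CPM in control body columns (edgeR adjusted p = 0.0836). In heads it had 0.182, 0, 0.385 and 0.361 CPM after RNAi, against 0.805, 0.989, 0.643 and 1.8 CPM in controls. Its body column groups did not overlap, and without RNAi head 2, which takes no part in the contrast but in its estimate of spread, its adjusted p was 0.039. GGKF01079164.1 had 0, 0.318, 1.56 and 0.291 CPM in RNAi body columns, against 0 in all 3 control body columns (edgeR adjusted p = 0.133). Its heads had 0.393, 0.409, 0 and 1.01 CPM after RNAi, against 1.04, 1.79, 3.46 and 1.41 CPM in controls.

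The rule for heads was also applied to body columns, with the 3 control body columns in place of the control heads. It chose 160 of 6213 transcripts (2.58%), and 4 were members, which is 1.57% of the 255 members and 2.5% of the 160. Besides the 2 called ones, these were GGKF01041162.1 and GGKF01062201.1, named after their values were seen. GGKF01041162.1 had 0.437, 0.225, 0 and 1.35 CPM in RNAi body columns, against 1.45, 1.73 and 4.07 CPM in control body columns. GGKF01062201.1 had 0, 0, 0.229 and 0 CPM in RNAi body columns, against 0.998, 2.44 and 2.98 CPM in control body columns. Neither passed the test in body columns (edgeR adjusted p = 0.231 and 0.12). Only 26 members met the level limits in the control body columns, so the 4 were chosen out of 26 and most members could not have been. With no upper limit on the level, 28 members had at least 10 counts in every control body column, and in 4 of them (14.3%) the RNAi body column mean was under 0.3 of the control mean. Among the other rare head transcripts this held for 36 of 4336 (0.83%). The other way round, the control body column mean was under 0.3 of the RNAi mean in 2 of 33 members (6.06%) with at least 10 counts in every RNAi body column, and in 28 of 4376 others (0.64%). Members thus had the larger share in both directions, at a lower median level in the group that had to hold the counts, of 1.32 CPM in both directions against 2.28 and 2.05 CPM for the others, and the part of the level in this was not tested.

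The difference between tissues in the set moved with the treatment of the heads. Among control animals edgeR's quasi-likelihood test called 57 members (22.4%) higher in heads than in body columns. This stood beside 14.6% of all tested and 9.80% of rare head transcripts. It called 1 member lower (0.392%), beside 14.1% of all tested and 8.68% of rare head transcripts. The median log2 difference of head over body column was 1.61 over the members and 0.07 over all tested transcripts. Among RNAi animals 23 members (9.02%) were called higher in heads, beside 13.1% of all tested and 7.42% of rare head transcripts. Lower in heads were 10 members (3.92%), beside 12.5% of all tested and 7.11% of rare head transcripts. The median log2 difference there was -0.42 over the members and 0.02 over all tested transcripts. The members were in this test through their counts in control heads, and only 82 passed the filter on the 2 RNAi groups alone. In that fit 2 members were called higher and 7 lower in RNAi heads than in RNAi body columns. That fit called 30.8% of all tested transcripts in either direction, and the median log2 difference was -0.94 over the 82 members. The rule keeps the RNAi heads of members low, so this filter favours members with counts in RNAi body columns. Nothing is therefore read from the turned balance of the calls. The control heads enter the rule for their level and the RNAi heads for their lack of it, so both tissue contrasts are descriptions. The member called lower in control heads was GGKF01023139.1, at a log2 difference of -2.77.

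The RNAi effect in heads minus that in body columns was called for 4 members (1.57%), all with the more negative effect in heads. Called in that direction were 1.07% of all tested and 0.294% of rare head transcripts. This contrast holds the head values that chose the set, so it too is a description. GGKF01032553.1 had a difference of -2.67 ± 0.49 on the log2 scale (SE, edgeR adjusted p = 0.0148). The other 3 were chosen for naming after their values were seen. GGKF01001974.1 had 0.402, 0.695, 0.832 and 0.539 CPM in RNAi heads, against 4.87, 3.21, 3 and 3.84 CPM in control heads. In body columns it had 2.56, 1.87, 3.51 and 2.45 CPM after RNAi, against 2.42, 1.97 and 1.65 CPM in controls. Its RNAi heads were the lowest 4 of the 15 libraries, and the other groups lay within 1.65 to 4.87 CPM. GGKF01062062.1 had 0.658, 0.566, 0.611 and 0.915 CPM in RNAi heads, against 2.02, 1.68, 2.46 and 3.61 CPM in control heads. In body columns it had 0.589, 0.826, 1.1 and 0.986 CPM after RNAi, against 0.606, 0.156 and 0.276 CPM in controls. GGKF01035421.1 had 0.679, 0.301, 0.184 and 0.893 CPM in RNAi heads, against 2.22, 1.65, 2.07 and 1.36 CPM in control heads. Its body columns had 1.08, 1.04, 1.01 and 0.633 CPM after RNAi, against 0.381, 0.287 and 0.442 CPM in controls, with every RNAi body column above every control one.

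Turned round, with the RNAi heads as the group that must hold at least 10 counts and the control heads under 0.3 of it, the rule chose 66 of 6527 transcripts (1.01%), against 255 of 6796 (3.75%) as written. On CPM scaled with TMM factors, which correct for composition, the counts were 209 of 7217 (2.9%) as written and 78 of 6493 (1.2%) turned round. In body columns it chose 160 of 6213 (2.58%) for low RNAi and 105 of 6503 (1.61%) for low controls, with no TMM scaling. The directions are unlike there, since 3 control libraries had to hold the counts one way and 4 RNAi libraries the other. No direction is therefore read from the body column shares.

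At the limit of the rule the members just inside were GGKF01043808.1 with a ratio of RNAi to control heads of 0.2998 and GGKF01042316.1 with 0.2989. The rare head transcripts just outside were GGKF01075107.1 with 0.3004 and GGKF01051657.1 with 0.3013.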

How the data were processed

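The authors deposited expected counts, which need not be whole, for 79784 contigs in 15 libraries. Libraries were made with a stranded TruSeq mRNA kit, per the labels' protocols. The submitters' processing notes name Salmon and DESeq2 1.26.0, and their settings and the assembly are not given in the sources used here. Contigs of near-identical sequence can share reads, so values of single contigs are uncertain. Libraries were grouped by their titles, and every column had a sample. Replicates differed by more than sampling noise (lowest chi-square per degree of freedom 8.67), so none was merged.

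CPM in the text is the deposited expected count divided by the column sum. For tests, expected counts were rounded, which changed a total by at most 145, and filterByExpr left 31142 transcripts, all 255 members among them. The quasi-likelihood test of edgeR 4.0.16 (R 4.3.3) was fitted to 4 group means over all 15 libraries with TMM factors between 0.921 and 1.12, and p-values were adjusted over all 31142 by the Benjamini-Hochberg method. Standard errors come from the fitted fold change and its F statistic. DESeq2 1.42.0 was an alternative, as were library size alone, no filter, only the 2 groups compared, a replicate block and each library left out. The fit was tested on simulated data.

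Members and the classes were chosen with earlier results of these data known. Transcripts named were, by rule, the 2 members with the lowest body column p in each direction, the 2 highest in control heads, the 2 with the lowest head ratio, the 2 highest and 2 lowest in control body columns, and the 2 nearest the ratio of 0.3 on either side. Others are said to be named after their values were seen. Same-numbered libraries showed no correlated deviations, so no pairing was used, though this does not exclude pairing. No sequences are shown.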

Additional observations from a re-analysis of the deposited data

Results flagged for a closer look

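Of 44 groups of 4 libraries checked over the transcripts named by rule, 3 held a library far from the other 3 by Dixon's criterion. Chance would meet it in about 1 in 20 groups if values were normally spread. A group with 1 nonzero value and 3 at 0 always meets it, so that rate does not hold here. Both GGKF01009601.1 in RNAi heads and GGKF01075107.1 in RNAi body columns are such groups. GGKF01009601.1 stood at 4.14 CPM in RNAi head 3 and at 0 in the other RNAi heads. GGKF01042316.1, a member just inside the ratio limit, stood at 2.27 CPM in control head 4, above its other control heads. GGKF01075107.1, just outside the limit and no member, stood at 0.0658 CPM in RNAi body column 3, which is under the floor of 3 counts.

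The RNAi effect differed between head and body column in 4 members (1.57%) by edgeR's quasi-likelihood test of the difference, beside 1.57% of all tested transcripts. Named by rule among the 4 was GGKF01032553.1 (adjusted p = 0.0148 by that test). The head values that chose the set enter this test, so it is no independent result.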

How the results depend on the processing

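Low counts limit single members most: the median member had 6.4 expected counts in an RNAi head. Library size alone in place of TMM moved the median log2 fold change of all tested transcripts in heads to -0.14, against -0.02, and that of head over body column in controls to 0.19, against 0.07. In body columns it moved to -0.04, against 0.01. The cause was not tested for any change below, except that fewer samples enter a fit that leaves libraries out. GGKF01015246.1, GGKF01033274.1, GGKF01027068.1 and GGKF01079164.1 kept their direction in body columns in every fit that held them. The other named transcripts were not followed over these fits.

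Of the 2 members called in body columns, 1 was called with library size alone and 1 without the filter. With only the 2 groups compared 0 were called, where 114 members passed the filter, and with 1 library left out between 1 and 3. The share called of all tested transcripts was 2.06% in the main fit, and 0.459%, 0.428% and 0.395% in the first 3 of these settings. With 1 library left out that share was between 0.307% and 2.41%. DESeq2 called 9, with 3 higher in RNAi body columns and 6 lower, beside 8.03% of all tested transcripts. GGKF01015246.1 was called in all 15 fits that left out a library, while GGKF01033274.1 was not called with library size alone (adjusted p = 0.0532). DESeq2 called GGKF01027068.1 (adjusted p = 0.0118) and GGKF01079164.1 (adjusted p = 0.0163) higher in RNAi body columns. The 17 called in heads were 6 without the filter, 109 by DESeq2 and 41 with only the 2 groups compared. With 1 library left out they were between 6 and 20, at most 10 without RNAi head 2 or any 1 control head. The share of all tested transcripts was 4.76% in the main fit, 1.55% without the filter, 9.9% by DESeq2 and 4.69% with only the 2 groups. With 1 library left out that share was between 3.15% and 4.76%. Of the 58 called between control tissues, DESeq2 gave 88, and leaving out 1 library between 46 and 60. For RNAi tissues the 33 (23 higher and 10 lower in heads) were 55 by DESeq2, 9 with only the 2 groups compared, of 82 members that passed the filter, with 2 higher and 7 lower, and between 22 and 35 with 1 library left out. For the difference of effects the 4 were 1 without the filter, 31 by DESeq2 and between 2 and 5 with 1 library left out, at 2 without any of RNAi body columns 2 and 3, control body column 3 or control heads 1, 3 and 4.

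Correlations of deviations between same-numbered libraries lay between -0.015 and 0.0143 in heads and between -0.003 and 0.0403 in body columns. Between the tissues they lay between -0.0151 and 0.00215 in controls and between -0.0357 and 0.0053 in RNAi animals. They gave no sign of pairing, but cannot exclude it in such small groups. With the replicate block 0 members were called in body columns, 4 in heads, 21 between RNAi tissues and 2 for the difference of effects. Of all tested transcripts that fit called 0.324%, 3.17%, 23.5% and 0.8% in the same order. With the replicate block and only the 2 groups compared, a combination chosen after seeing the data, 0 were called in body columns, 0 in heads, 17 between control tissues and 5 between RNAi tissues, with 2 higher and 3 lower in heads. Own-number correlation was the best for 0 of 4 heads and 2 of 3 body columns.

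The rule gave 95 members at a ratio limit of 0.2, 1120 at 0.5, 96 with at least 20 counts in each control head, 117 under 2 CPM, and between 271 and 422 without 1 head, at 410, 422 and 383 without control heads 2, 3 and 4. The class at 0 in control body columns held between 33 and 45 members with 1 of these left out (45 and 42 without control body columns 2 and 4), and the class over 1 held between 6 and 14 (14 without control body column 3). The class under 0.3 held between 94 and 98, and that from 0.3 to 1 between 105 and 112.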
